A study of Mus musculus with 43 samples.

Results

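Ext2 and 9 other genes of heparan sulfate synthesis were followed through 43 RNA-sequencing libraries of purified mouse glia. The 10 genes, of 55416 counted in every library, were Ext1, Ext2, Extl1, Extl2, Extl3, Ndst1, Hs2st1, Hs6st1, Glce and B3gat3. They were picked by name, and Ext2 was picked because its counts varied strongly between libraries of the same cell type. That spread of Ext2 is therefore given as a description with no test, and the question put to the data was whether its 9 partners in the pathway varied in the same way. Every row of the 10 genes was present in all 43 libraries. Ext2 ranged over 178-fold between oligodendrocyte libraries, and by the SD of log2(CPM + 0.5) no partner varied more than Ext2 in any cell type, although Extl1, with very few reads in microglia, ranged over a wider fold there.

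Heparan sulfate is a long chain of alternating glucuronic acid and N-acetylglucosamine that is built in the Golgi on the serines of proteoglycan core proteins. A short linker of 4 sugars is laid down first and is closed by the glucuronyltransferase B3GAT3. EXTL3 then adds the N-acetylglucosamine that starts a heparan sulfate chain, and EXTL2 acts on the linker in a way that can stop the chain from growing. EXT1 and EXT2 work as a complex that polymerises the chain, with most of the catalytic activity in EXT1. NDST1 replaces N-acetyl groups with sulfate, GLCE turns glucuronic acid into iduronic acid, HS2ST1 adds 2-O-sulfate and HS6ST1 adds 6-O-sulfate. Heparan sulfate at the surface of glia binds growth factors such as FGFs and PDGF, and inherited loss of EXT1 or EXT2 function causes multiple osteochondromas in people.

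The libraries came from the cerebral cortex of 12 mice aged 3 months, in 6 littermate pairs of a control and a Rag2-/- mouse. Controls were Rag2+/- in pairs 1, 2, 3 and 5 and Rag2+/+ in pairs 4 and 6. Both mice of a pair were of the same sex except in pair 6, where the control was male and the Rag2-/- mouse female. Rag2-/- mice carry a germline deletion of the recombinase gene Rag2 in every cell and lack mature T and B lymphocytes, and they were bred with C57BL/6J mice. Microglia, OPCs (oligodendrocyte precursor cells), oligodendrocytes and astrocytes were taken in turn from 1 cell suspension per brain by immunopanning, in which cells bind to a dish coated with an antibody to a surface protein. Oligodendrocytes gave 4 control and 4 Rag2-/- libraries, OPCs 6 and 5, and astrocytes and microglia 6 and 6 each. A library is named here by its cell type, genotype and littermate pair. Libraries of 1 cell type were run together on a lane, so a lane effect and a cell type effect cannot be told apart.

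Read pairs on genes numbered 6499417 to 23118497 per library, with a median of 10447000. Mitochondrially encoded genes took 45.8% to 60.1% of them in oligodendrocytes, 22.4% to 36.7% in OPCs, 22.5% to 45.1% in astrocytes and 6.75% to 11.7% in microglia. The 7, 6, 7 and 7 marker genes of oligodendrocytes, OPCs, astrocytes and microglia each had their highest summed level in the libraries labelled with that cell type. Astrocyte libraries also held summed oligodendrocyte markers at 3718 to 6498 CPM, against 27121 to 36023 CPM in oligodendrocytes. Rag2 had no read in 21 of 21 Rag2-/- libraries and in 19 of 22 controls, so its own counts check few labels. Iftap, which overlaps Rag2 on the other strand, had 14 to 208 counts in controls and 0 to 2 in Rag2-/- libraries.

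Levels are given as CPM, the count of a gene relative to library size after TMM scaling (a trimmed mean of log ratios that sets the libraries to a common scale) over all 43 libraries. In oligodendrocytes, the myelinating cells, Ext2 stood at 20.1, 22.5, 3.60 and 5.97 CPM in the controls of pairs 1, 3, 5 and 6. In the Rag2-/- mice of the same pairs it stood at 161, 640, 34.9 and 12.2 CPM. The ranges of the genotypes overlapped, and the Rag2-/- library of pair 3 alone held 71.1% of all Ext2 measured in the 8 libraries. Ext2 counts behind these levels ran from 19 in the control of pair 5 to 5007 in the Rag2-/- mouse of pair 3.

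OPCs, the cells that give rise to oligodendrocytes, had Ext2 at 26.6 to 213 CPM in controls (median 34.4, n = 6). In Rag2-/- OPCs it stood at 56.4, 49.8, 104.4, 23.3 and 45.2 CPM in pairs 1, 2, 3, 4 and 6. A single control, that of pair 6, lay far above the others, and the next highest OPC library was the Rag2-/- library of pair 3. Control astrocytes had 20.2 to 155 CPM (median 36.5, n = 6) and Rag2-/- astrocytes 17.6 to 35.7 CPM (median 25.1, n = 6). The control of pair 5 gave the highest astrocyte value, and the other 11 astrocyte libraries reached at most 50.7 CPM. Microglia, the resident macrophages of the brain, had 15.7 to 72.1 CPM in controls (median 27.5, n = 6) and 13.9 to 22.6 CPM in Rag2-/- mice (median 17.2, n = 6). Their highest library was the control of pair 2. The highest library came from pair 3, 6, 5 and 2 in oligodendrocytes, OPCs, astrocytes and microglia. Below these single libraries pair 3 recurred, as was seen once the values were laid out by mouse. Its Rag2-/- mouse had the highest Ext2 of the Rag2-/- libraries in all 4 cell types, with 640, 104.4, 35.7 and 22.6 CPM. In astrocytes and microglia the next Rag2-/- library was close, with 32.3 and 20.8 CPM. The control of pair 3 came first among control oligodendrocytes, with 22.5 CPM, and second among control OPCs, astrocytes and microglia, with 48.2, 50.7 and 41.4 CPM. This order was not tested.

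**Figure D1:**
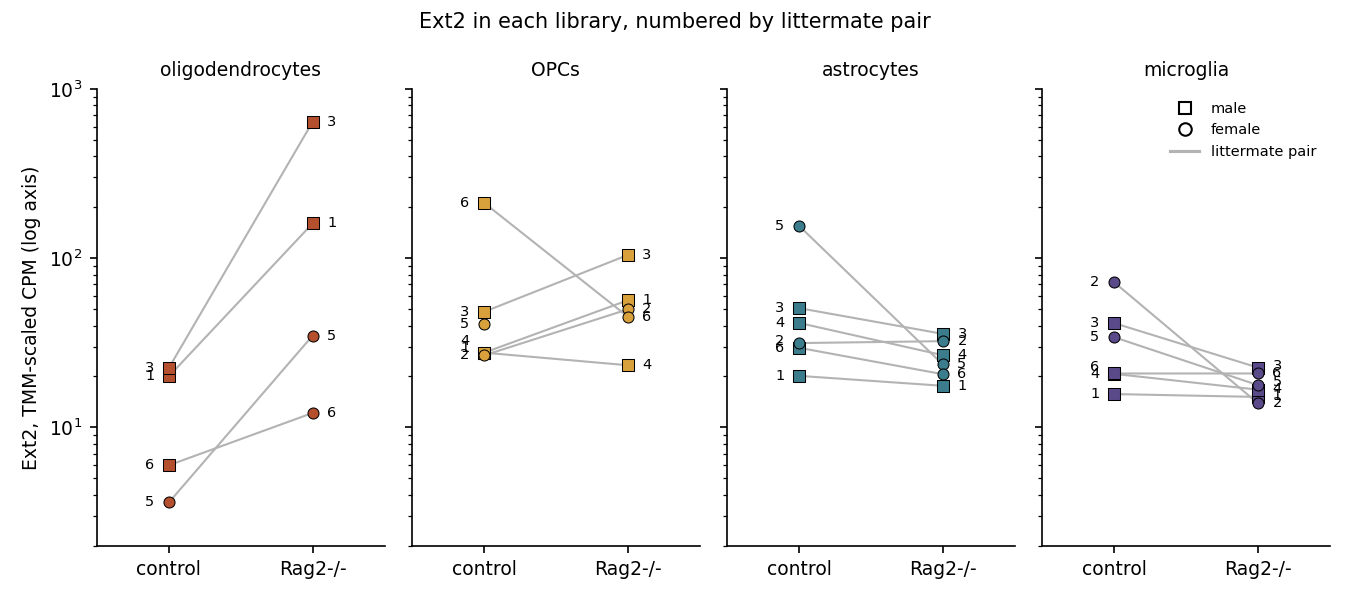
Ext2 in each library as TMM-scaled CPM on a log axis, by cell type and genotype, with the littermate pair as number, sex as marker shape and a grey line joining the mice of a pair. Oligodendrocytes span 3.60 to 640 CPM and are higher in the Rag2-/- mouse in 4 of 4 pairs, while in astrocytes and in microglia the control is higher in 5 of 6 pairs.

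Within littermate pairs, Rag2-/- oligodendrocytes had 8.01, 28.5, 9.69 and 2.04 times the Ext2 of their control in pairs 1, 3, 5 and 6. They were higher in 4 of 4 pairs, as were 6.16% of the 13802 genes tested in oligodendrocytes. OPCs of Rag2-/- mice were higher in 3 of 5 pairs, with ratios of 0.212 to 2.17. Astrocytes were lower in Rag2-/- in 5 of 6 pairs (ratios 0.152 to 1.03), which at least 5 of 6 pairs showed for 9.26% of genes tested. Microglia were lower in 5 of 6 pairs (0.193 to 1.00), a pattern that 11.1% of genes showed in at least 5 of 6 pairs. These shares are given for reading the counts and nothing is drawn from them, since Ext2 was picked for its values in these libraries. In pair 6 each ratio sets a female Rag2-/- mouse against a male control, so sex and genotype cannot be told apart there.

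Over the mice with both libraries, the Pearson correlation of Ext2 between 2 cell types ran from -0.397 for oligodendrocytes and astrocytes (n = 8, two-sided exact permutation p = 0.319, adjusted 0.922) to 0.135 for oligodendrocytes and OPCs (n = 7, exact permutation p = 0.779, adjusted 0.950). Spearman's rho for those pairs was -0.310 (exact permutation p = 0.462) and 0.321 (exact permutation p = 0.498), and r without the 2 mice farthest from the median was -0.629 and -0.424. For astrocytes and microglia no r is given, because a single astrocyte value lay apart from the rest. Of the 47 relations tested over the 10 genes, none passed a Benjamini-Hochberg adjusted permutation p of 0.05, and the lowest adjusted p was 0.777. Unadjusted, 3 of the 47 were under 0.05. With 7 to 12 mice a relation, these tests do not show that the cell types of a mouse vary apart.

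EXT1 and EXT2 are the catalytic pair of the chain polymerase, and Ext1 did not share the spread of Ext2. Ext1 stood at 29.6 to 36.3 CPM in 7 of 8 oligodendrocyte libraries and at 74.7 CPM in the control of pair 5, the library lowest in Ext2. In OPCs it ranged 1.93-fold, in astrocytes 1.88-fold and in microglia 1.69-fold, where Ext2 ranged 9.13-fold, 8.82-fold and 5.19-fold. Per kilobase of canonical transcript, Ext2 stood at a median of 1.80 times Ext1 in oligodendrocytes, with 0.126 times in the lowest library and 51.3 times in the highest. Median ratios for OPCs, astrocytes and microglia were 2.13, 1.64 and 1.41. Which of both was higher turned on the length used: with the union of all annotated exons, which for Ext2 is 13372 bases against 2961 in the canonical transcript, the medians were 0.419, 0.497, 0.382 and 0.329.

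Ext2 (ENSMUSG00000027198) lies at chr2:93491373-93653003 on the minus strand of GRCm39, with 14 exons in its canonical transcript, 7.80 Mb from Rag2 on the same chromosome. Ext1 (ENSMUSG00000061731) lies at chr15:52927434-53209602 on the minus strand, with 11 exons. No exonic base of either gene is shared with another annotated gene, and no stretch of 50 bases of either canonical transcript occurs elsewhere in the genome. The 250 bases before the canonical start of both genes, read from GRCm39 on the strand of the gene, are shown because the pair acts as 1 enzyme while their levels came apart. Capitals mark a GC box (GGGCGG, or CCGCCC on the other strand) or a CCAAT box (CCAAT, or ATTGG on the other strand), searched on both strands. No base of either window is exonic in the annotation.
Ext2 at chr2:93653004-93653253: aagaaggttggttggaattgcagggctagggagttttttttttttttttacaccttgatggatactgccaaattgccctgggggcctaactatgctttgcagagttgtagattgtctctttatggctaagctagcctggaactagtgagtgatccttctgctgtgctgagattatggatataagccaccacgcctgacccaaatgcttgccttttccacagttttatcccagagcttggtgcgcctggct
Ext1 at chr15:53209603-53209852: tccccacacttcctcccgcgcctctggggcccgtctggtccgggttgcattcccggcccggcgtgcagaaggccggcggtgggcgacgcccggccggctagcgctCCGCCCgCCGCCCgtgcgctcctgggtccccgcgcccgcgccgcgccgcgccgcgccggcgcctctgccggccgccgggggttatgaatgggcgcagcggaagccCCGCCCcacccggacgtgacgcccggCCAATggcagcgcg
The Ext2 window held 46.0% G and C and 2 CpG, and 16.5% of the windows of 21627 genes had fewer CpG. Ext1 had 80.4% G and C and 43 CpG, and 99.65% of genes had fewer. Ext1 carried 3 GC boxes and 1 CCAAT box, and Ext2 carried neither. Over all these genes the GC box occurred in 36.4% of windows and the CCAAT box in 36.5%, and 5 of the 10 genes had each of them. A TATA box (TATAAA, or TTTATA on the other strand) was found in 11.9% of windows and in 0 of the 10. The window depends on which start is annotated: the 300 bases that RefSeq gives around its own Ext2 start, in the build GRCm38.p6, held 58.0% G and C, 18 CpG and again no GC box, CCAAT box or TATA box. These matches describe the letters of the windows and nothing more.

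Spread was measured in each cell type as the SD of log2(CPM + 0.5) around the genotype means. Ext2 had an SD of 1.96 among oligodendrocytes, 0.99 among OPCs, 0.76 among astrocytes and 0.59 among microglia. In 0 of 36 combinations of a partner and a cell type was the SD of the partner wider than that of Ext2 in the same cells. The added 0.5 matters for Extl1 in microglia, which averaged 0.752 CPM and ranged 15.3-fold, against 5.19-fold for Ext2. A second measure, edgeR's gene-wise dispersion in the fit with sex and genotype over the dispersion trend at the same mean count, was 4.62, 13.9, 6.88 and 4.09 for Ext2. These ratios lay above those of 99.0%, 99.96%, 99.8% and 99.2% of all genes tested in the 4 cell types. Both measures rest on the values for which Ext2 was picked.

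**Figure D2:**
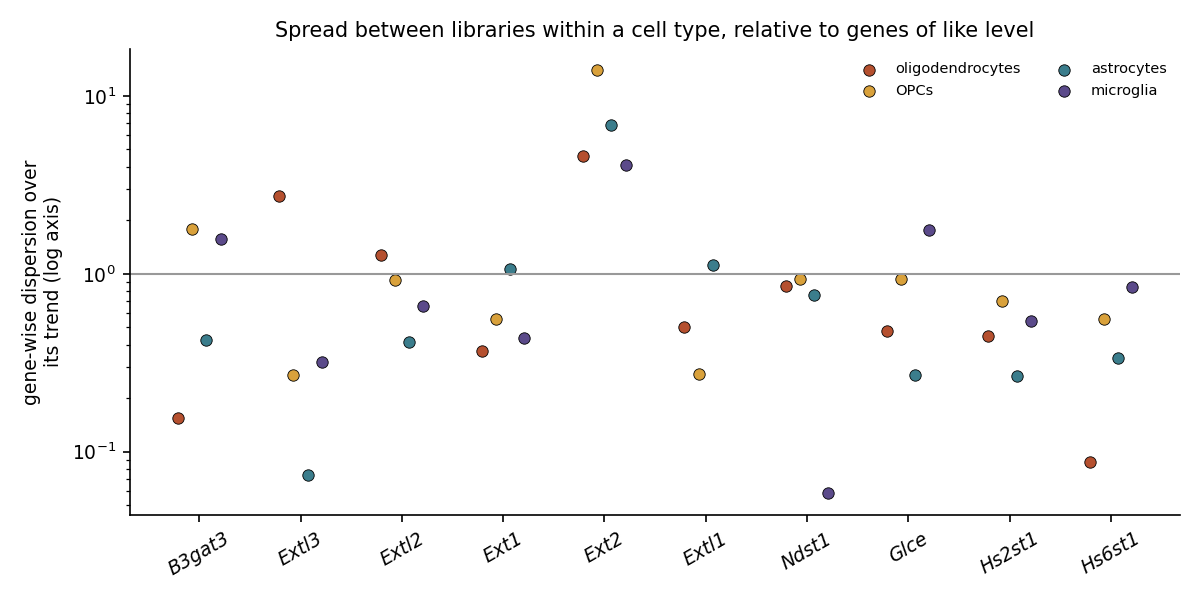
Gene-wise dispersion over its trend, on a log axis, for the 10 genes in order of their role, with 1 point per cell type and a grey line at 1, where a gene varied like others of its mean count. Ext2 lies between 4.09 and 13.9, and the highest partner is Extl3 in oligodendrocytes at 2.74; Extl1 in microglia had too few counts to be fitted and has no point.

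Most partners varied about as much as genes of their level or less. B3gat3, which completes the linker, had a ratio of 1.79 in OPCs and 1.57 in microglia, above 87.8% and 83.3% of genes, and 0.155 in oligodendrocytes. Extl3, which primes the chain, reached 2.74 in oligodendrocytes, above 95.0% of genes, and 0.0736 in astrocytes. In oligodendrocytes Extl3 stood at 74.7, 90.8, 112 and 93.3 CPM in the controls of pairs 1, 3, 5 and 6 and at 213, 144, 30.3 and 147 CPM in Rag2-/- mice. Its highest and lowest libraries were therefore both Rag2-/-, and neither was the library highest in Ext2.

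Among the other chain-building enzymes, Extl2 had ratios from 0.413 in astrocytes to 1.28 in oligodendrocytes, and Extl1, a related transferase, from 0.275 in OPCs to 1.13 in astrocytes. Extl1 had only 2 to 19 counts per microglia library and did not pass the filter there. For the modifying enzymes, Glce reached 1.77 in microglia, above 87.3% of genes, and stayed at or under 0.931 elsewhere. Ndst1 ran from 0.0583 in microglia, where its 12 libraries lay between 21.3 and 26.6 CPM, to 0.937 in OPCs. Hs2st1 did not exceed 0.699 and Hs6st1 did not exceed 0.847. Of the 10 genes, Ext2 alone had a ratio above 3 in any cell type.

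Leaving out the highest Ext2 library of each cell type, an alternative chosen after seeing the data, lowered the SD of Ext2 to 1.51, 0.61, 0.44 and 0.42. Its lowest and highest remaining libraries were then 44.6-fold, 4.48-fold, 2.88-fold and 2.97-fold apart. No partner was wider in oligodendrocytes or OPCs, where the widest were Hs6st1 (0.97) and B3gat3 (0.56). In astrocytes 1 partner was wider and in microglia 2, led by Extl1 with 0.66 and 0.59. In astrocytes the place of Ext2 above all partners rested on the control of pair 5. In microglia it rested on either of 2 libraries, since 1 partner was also wider without the control of pair 1.

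Of 36 partner values in the 4 libraries highest in Ext2, 28 lay within the range of the other libraries of the cell type, 4 above all of them and 4 below. Over all genes 16.8% of values lay outside that range in these libraries, with 25.8% in the oligodendrocyte library, 14.7% in OPCs, 11.9% in astrocytes and 15.6% in microglia, so the partners' 8 of 36 are near what any gene showed. In the Rag2-/- oligodendrocytes of pair 3, Ext2 was 31.9 times the median of the other 7 libraries. Glce was 37.7 CPM there, 3.21 times the median of the others, and B3gat3 was 30.5 CPM, 1.66 times it, and both were above all other oligodendrocyte libraries. Extl1 at 2.30 CPM and Extl2 at 16.1 CPM were below all others, at 0.242 and 0.472 times the median. B3gat3 was nearly as high in the Rag2-/- library of pair 1, with 30.3 CPM, which is also the second highest in Ext2.

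In the control OPCs of pair 6, 0 of 9 partners lay outside the range of the other OPC libraries, and their levels were 0.805 to 1.12 times the median. The control astrocytes of pair 5 had B3gat3 above and Glce below the other astrocyte libraries. The control microglia of pair 2 had Extl3 above and B3gat3 below the others. No partner was out of range in the same direction in all 4 libraries.

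**Figure D3:**
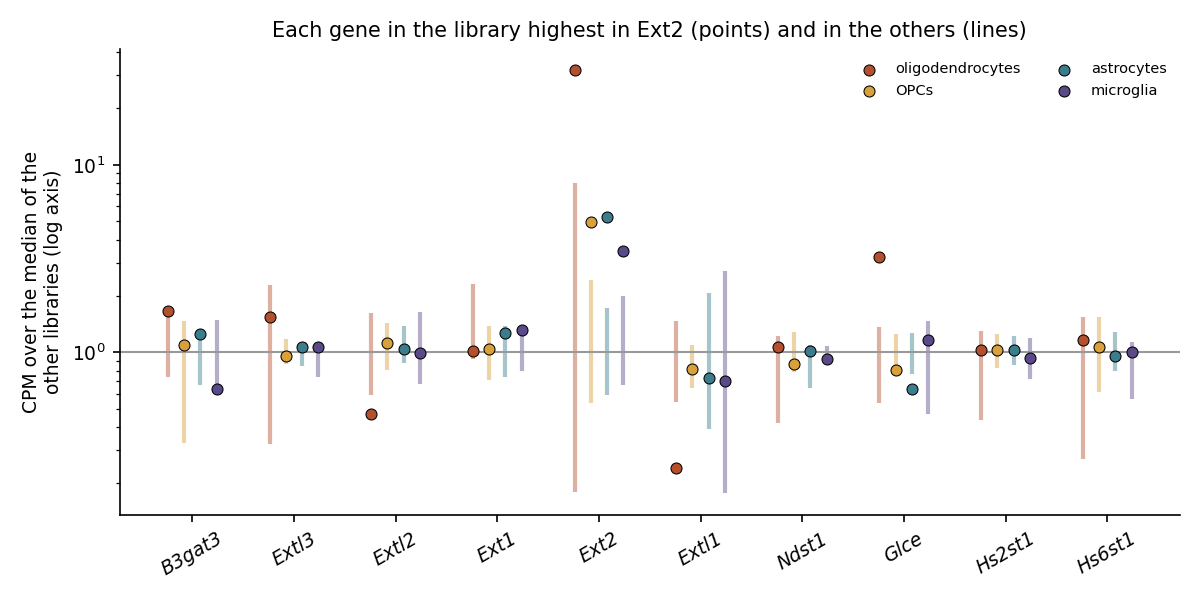
For each gene and cell type, the level in the library highest in Ext2 divided by the median of the other libraries (points, log axis), with lines from the lowest to the highest of the other libraries. Ext2 points lie at 31.9 times the median in oligodendrocytes and far above their lines in every cell type, as the choice of library requires; 28 of 36 partner points lie within their lines.

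Across libraries of a cell type, no partner followed Ext2 past the test. Of 36 relations between Ext2 and a partner, 9 in astrocytes were not computed because a single Ext2 value lay apart, and 27 were tested. Pearson's r ran from -0.680 to 0.793 with a median of 0.112, and 0 of 27 passed an adjusted two-sided permutation p of 0.05, where the lowest was 0.481. The strongest was Glce in oligodendrocytes, with r = 0.793 (n = 8, exact permutation p = 0.0202, adjusted 0.481) and rho = 0.667 (exact permutation p = 0.0831, adjusted 0.724). It rested on the extremes: without the 2 libraries farthest from the median of Ext2, r was 0.288. For B3gat3 in oligodendrocytes r was 0.747 (n = 8, exact permutation p = 0.0356, adjusted 0.481), rho was 0.405 (exact permutation p = 0.327, adjusted 0.802), and r was -0.388 without those 2 libraries. Extl1 went the other way with r = -0.680 (n = 8, exact permutation p = 0.0641, adjusted 0.577), rho = -0.643 (exact permutation p = 0.0962, adjusted 0.724) and r = -0.729 without them.

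Over all 43 libraries and the 11502 genes that passed the filter in every cell type, the deviations from the cell type mean most like those of Ext2 belonged to Tbc1d2b (r = 0.723), Fubp3 (0.662), Lrrc8a (0.661), Mrpl15 (0.656) and Ebna1bp2 (0.655). None of them is a gene of heparan sulfate synthesis, and all libraries entered with their own depth and scaling. Tbc1d2b, for example, stood at 53.3 CPM in the Rag2-/- oligodendrocytes of pair 3, where Ext2 was highest, and at 3.22 to 19.1 CPM in the other 7 oligodendrocyte libraries. Among partners, Glce came highest with r = 0.427 at rank 745, then Hs2st1 with 0.325 at rank 1741 and Hs6st1 with 0.283 at rank 2283. Ext1 had r = -0.137 at rank 8930 and Extl2 r = -0.216. The order rested on oligodendrocytes: over the 35 other libraries, an alternative chosen after seeing the data, the 5 leading genes had r of 0.326, 0.0270, -0.0246, 0.268 and 0.433, and Glce had -0.0246. Ext1 changed sign there, to r = 0.263 at rank 915.

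The summed level of 7 neuron markers also differed between oligodendrocyte libraries. It was 1022 and 1186 CPM in the control and Rag2-/- mouse of pair 1, 619 and 592 CPM in pair 3, 2250 and 2322 CPM in pair 5, and 3021 and 2285 CPM in pair 6. All 7 neuron markers were detected in both genotypes. Within each genotype, pairs 1 and 3 had lower sums and higher Ext2 than pairs 5 and 6. Across genotypes that order did not hold. The Rag2-/- library of pair 5, with a sum of 2322 CPM, had Ext2 at 34.9 CPM, above 20.1 and 22.5 CPM in the controls of pairs 1 and 3. The part of neuronal RNA in the Ext2 values was not tested.

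Cell types differed in the level of most partners. Each pair of cell types was compared in 1 edgeR quasi-likelihood fit over the 43 libraries, with calls at a Benjamini-Hochberg adjusted p under 0.05. Called were 4 of the 9 partners between oligodendrocytes and OPCs (40.7% of 21368 genes tested), 4 between oligodendrocytes and astrocytes (49.7% of genes) and 5 between oligodendrocytes and microglia (68% of genes). OPCs differed from astrocytes in 4 of the 9 (42.6% of genes) and from microglia in 8 (69.5% of genes), and astrocytes from microglia in 6 (70% of genes). The counts against microglia include Extl1, which had too few reads there and entered the fit through the other cell types, so it had to differ. Over the 8 partners that passed the filter in both cell types, 5 were higher and 2 lower in OPCs than in microglia, against 33.7% and 35.8% of 13473 genes. Oligodendrocytes had 3 of the 8 higher and 1 lower than microglia (34.5% and 37.6% of 11992 genes), and astrocytes 3 higher and 2 lower (36% and 36.2% of 12472 genes). All 9 partners passed in the other cell types, where 0 were higher and 4 lower in oligodendrocytes than in OPCs (20.7% and 24.4% of 13461 genes). Against astrocytes, oligodendrocytes had 2 higher and 2 lower (30.4% and 24% of 12672 genes), and OPCs 4 higher and 0 lower (25% and 20.2% of 14171 genes). With 8 or 9 genes, these counts do not set the pathway apart from other genes. The median log2 fold change of all genes was -0.24 for oligodendrocytes over OPCs, 0.14 for OPCs over astrocytes and 0.18 for OPCs over microglia, against which the values below can be read. In bulk libraries, fewer cells of a type and less RNA per cell cannot be told apart.

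B3gat3, at the end of the linker, was the steadiest, with 20.6 ± 6.34 CPM (SD, n = 8) in oligodendrocytes, 18.8 ± 5.85 (n = 11) in OPCs, 18.6 ± 3.41 (n = 12) in astrocytes and 16.8 ± 4.65 (n = 12) in microglia. It was called in 0 of 6 comparisons, with log2 fold changes of 0.01 to 0.27 and adjusted p in edgeR of 0.212 or more. Extl3, the chain primer, stood highest in microglia at 138 ± 12.3 CPM, with 117 ± 9.37 CPM in astrocytes, 113 ± 55.1 in oligodendrocytes and 98.8 ± 9.09 in OPCs. It was called lower in OPCs than in microglia, by a log2 difference of -0.48 (SE 0.14, edgeR adjusted p = 0.00293), and in no other comparison.

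Extl2 was highest in OPCs and lowest in microglia. It stood at 51.2 ± 9.78 CPM in OPCs, 31.8 ± 14.4 in oligodendrocytes, 28.2 ± 4.39 in astrocytes and 9.95 ± 2.60 in microglia, and all 12 microglia libraries lay below all others. Only the step between oligodendrocytes and astrocytes did not pass the test (log2 fold change 0.18, edgeR adjusted p = 0.426). Extl1 had the same order, with 11.04 ± 1.94, 8.44 ± 3.90, 4.29 ± 2.07 and 0.752 ± 0.550 CPM in OPCs, oligodendrocytes, astrocytes and microglia. OPCs exceeded microglia in Extl1 by a log2 fold change of 4.01 (SE 0.33), a value that rests on 2 to 19 counts per microglia library and is given without its p for that reason. OPCs and oligodendrocytes did not differ past the test (edgeR adjusted p = 0.301), and the call of oligodendrocytes over astrocytes was lost without the Rag2-/- oligodendrocytes of pair 1 (edgeR adjusted p = 0.0622). Of the exonic bases of Extl1, 15.8% overlap Slc30a2 on the other strand, and reads of the pair cannot be assigned by strand with the sources used here.

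Of the polymerase pair, Ext1 was 56.2 ± 9.32 CPM in OPCs, 48.1 ± 8.85 in astrocytes, 40.0 ± 6.29 in microglia and 37.5 ± 15.2 in oligodendrocytes. It was higher in OPCs than in oligodendrocytes (log2 fold change of oligodendrocytes over OPCs -0.62, edgeR adjusted p = 0.000802) and than in microglia (0.50, adjusted p = 0.000723 in edgeR). OPCs and astrocytes did not differ past the test (edgeR adjusted p = 0.148), nor did microglia and oligodendrocytes (edgeR adjusted p = 0.497). Ext2 had medians of 45.2 CPM in OPCs, 30.5 in astrocytes, 21.3 in oligodendrocytes and 20.8 in microglia, with ranges that overlapped throughout. Its log2 fold change of OPCs over microglia was 1.22, and 0.75 without the control OPCs of pair 6. These values of Ext2 are a description, since the same libraries served to pick it.

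Among the modifying enzymes, Ndst1, the N-deacetylase and N-sulfotransferase, was 84.6 ± 26.4 CPM in oligodendrocytes, 75.4 ± 10.4 in astrocytes and 70.9 ± 12.6 in OPCs, which did not differ past the test, and 24.04 ± 1.84 in microglia. Its log2 fold change over microglia was 1.80 in oligodendrocytes, 1.65 in astrocytes and 1.56 in OPCs (edgeR adjusted p of 1.78e-14 or less). Hs2st1 was lowest in microglia too, at 27.2 ± 3.80 CPM, against 85.1 ± 11.7 in OPCs, 69.7 ± 7.12 in astrocytes and 53.5 ± 14.5 in oligodendrocytes. All 6 comparisons of Hs2st1 were called, the closest being OPCs over astrocytes (log2 fold change 0.29, edgeR adjusted p = 0.0302), which was kept in 23 of 43 fits that left out 1 library. Of 4 processing alternatives, 1 kept that call, the littermate block, and their edgeR adjusted p ran from 0.0246 to 0.346.

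Hs6st1 went the other way and was highest in microglia, at 75.3 ± 12.6 CPM. Oligodendrocytes had 12.1 ± 6.57 CPM, astrocytes 14.5 ± 2.36 and OPCs 14.8 ± 4.29, and all 12 microglia libraries lay above all others. Its log2 difference from microglia was -2.75 in oligodendrocytes, -2.40 in OPCs and -2.39 in astrocytes, and the 3 cell types did not differ among themselves past the test. Glce was highest in OPCs, at 44.6 ± 8.53 CPM, where each of 11 libraries exceeded all astrocyte and microglia libraries. It stood at 15.3 ± 9.62 CPM in oligodendrocytes, 11.7 ± 3.53 in microglia and 8.74 ± 1.84 in astrocytes. OPCs exceeded astrocytes in Glce by a log2 fold change of 2.33 (SE 0.20, edgeR adjusted p = 5.78e-13). Oligodendrocytes exceeded astrocytes by 0.76 (edgeR adjusted p = 0.00298), but without the Rag2-/- oligodendrocytes of pair 3, the library highest in Ext2, the adjusted p was 0.104.

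**Figure D4:**
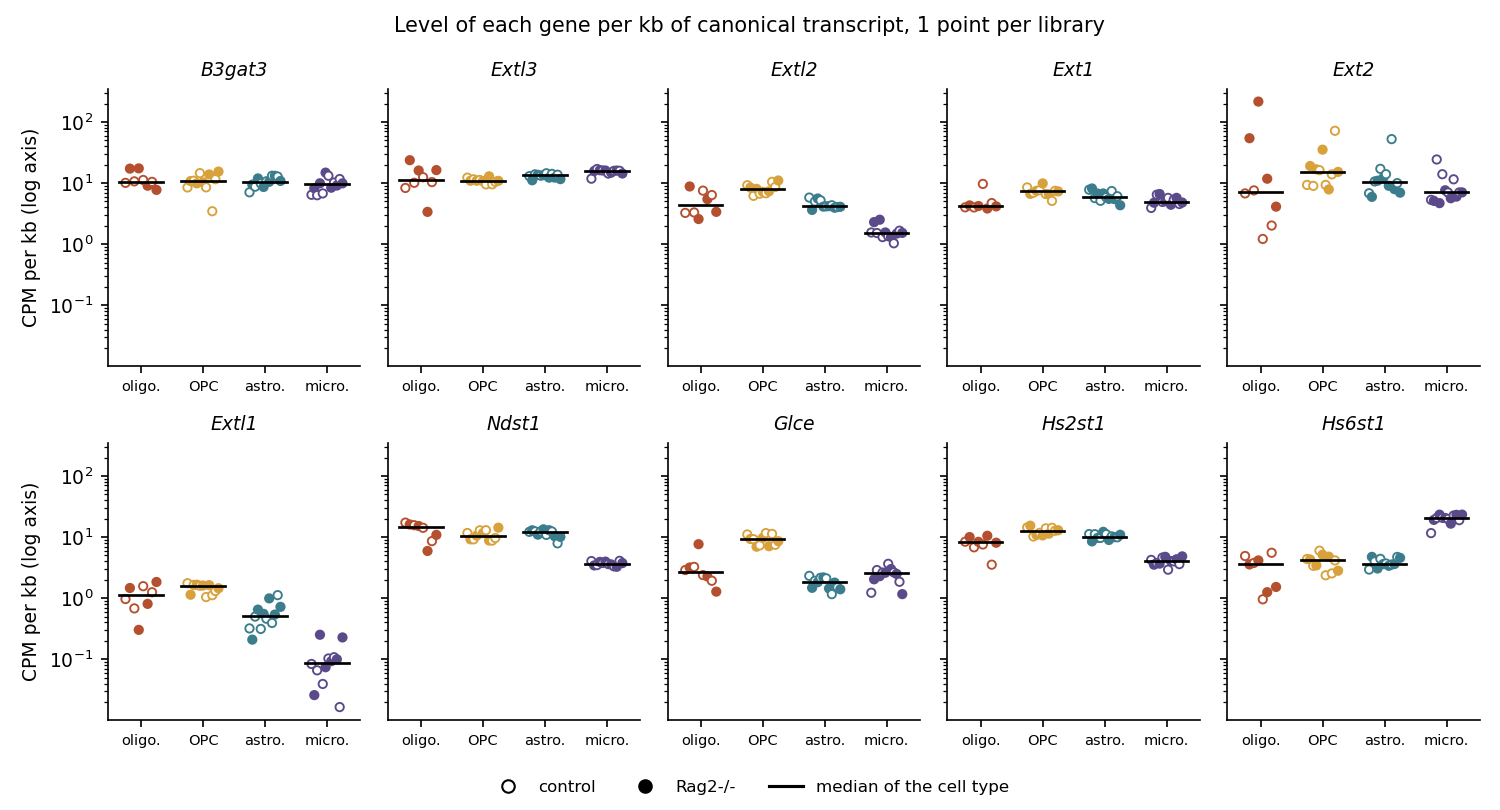
CPM per kilobase of canonical transcript on a log axis for the 10 genes in order of their role, with 1 point per library (open for controls, filled for Rag2-/-) and a black line at the median of the cell type. Hs6st1 is highest in microglia (median 20.6) and Extl1 lowest there (0.0883), and Ext2 is the gene whose points spread most within each cell type apart from Extl1 in microglia, whose counts are few.

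Per kilobase, the order of the genes differed between microglia and OPCs. In OPCs the medians were 15.3 CPM per kilobase for Ext2, 12.7 for Hs2st1, 10.9 for Extl3, 10.8 for B3gat3, 10.6 for Ndst1, 9.23 for Glce, 8.05 for Extl2, 7.30 for Ext1, 4.14 for Hs6st1 and 1.60 for Extl1. Hs6st1 headed the order in microglia with 20.6, followed by Extl3 with 15.9 and B3gat3 with 9.51. Ext2 had 7.02 and Ext1 4.99 there, and Extl1 with 0.0883 was last in both cell types. The place of Ext2 at the head of the OPC order holds for the canonical length alone. Per kilobase of all annotated exons, its mean in OPCs was 4.51, under 8.89 for Hs2st1, 8.76 for Extl3, 7.34 for Ndst1, 6.92 for Ext1, 6.02 for B3gat3, 5.47 for Extl2 and 5.46 for Glce. In microglia that length put Extl3, with a mean of 12.2, above Hs6st1, with 11.1.

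The genotype comparison asked whether lymphocyte deficiency changed the level of a partner in any cell type. In edgeR's quasi-likelihood test with sex as a term, 0 of 9 partners were called in oligodendrocytes (0% of 13802 genes tested), 0 of 9 in OPCs (0.00592% of genes), 0 of 9 in astrocytes (0.00679% of genes) and 0 of 8 tested in microglia (0.00667% of genes). Unadjusted, 0 partners had an edgeR p under 0.05 in any cell type. Over all genes tested these numbers were 467 of 13802, 679 of 16882, 423 of 14725 and 436 of 15003 in the same order. DESeq2 with the same terms called 0 partners as well. Since edgeR called at most 1 gene in any cell type, its counts do not set the partners apart from other genes. In oligodendrocytes it did not call even Iftap, with 34 to 77 counts in controls and 0 to 2 in Rag2-/- libraries. The lack of a call there therefore does not show that a partner was unchanged. The share of all genes that DESeq2 called by genotype is not given here. With DESeq2 on sex and genotype, the paper reported more changed genes in oligodendrocytes than in the other cell types. The log2 fold changes of partners, Rag2-/- over control, ran from -0.50 for Ext1 to 0.50 for Extl3 in oligodendrocytes, with standard errors of 0.31 to 0.71. They were within -0.24 to 0.36 in OPCs, -0.18 to 0.25 in astrocytes and -0.13 to 0.34 in microglia.

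Ext2, described without a test, had log2 fold changes of 4.03, -0.09, -1.04 and -0.94 for oligodendrocytes, OPCs, astrocytes and microglia. Its SEs are left out, because each SE was taken here from the F statistic of the edgeR test. Leaving out 1 library moved the oligodendrocyte value to between 3.05, without the Rag2-/- library of pair 3, and 4.60, without the control of pair 5. In OPCs the value turned to 0.67 without the control of pair 6, and in astrocytes it was -0.39 without the control of pair 5. With the littermate pair as a block in place of sex, the oligodendrocyte value was 3.10. Sex and genotype are unevenly spread in oligodendrocytes, where 3 of 8 libraries are female and 2 of those are Rag2-/-. In the fit with sex as a term, Ext2 had a female over male log2 fold change of -3.23 in oligodendrocytes, also described without a test. Ext2 stood at 5.97 to 640 CPM in the 5 males and at 3.60 to 34.9 CPM in the 3 females. The value of 4.03 was estimated beside that sex term.

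Hs2st1 was also higher in Rag2-/- oligodendrocytes in 4 of 4 pairs, with 56.8, 46.0, 51.2 and 23.9 CPM in controls and 67.7, 56.5, 71.1 and 54.7 CPM in Rag2-/- mice of pairs 1, 3, 5 and 6. The genotypes overlapped, and its log2 fold change of 0.44 (SE 0.32) had an edgeR adjusted p of 0.998. Glce, at 14.2, 16.02, 11.8 and 9.50 CPM in controls and 15.7, 37.7, 11.2 and 6.30 CPM in Rag2-/- mice, was higher in 2 of 4 pairs.

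**Figure D5:**
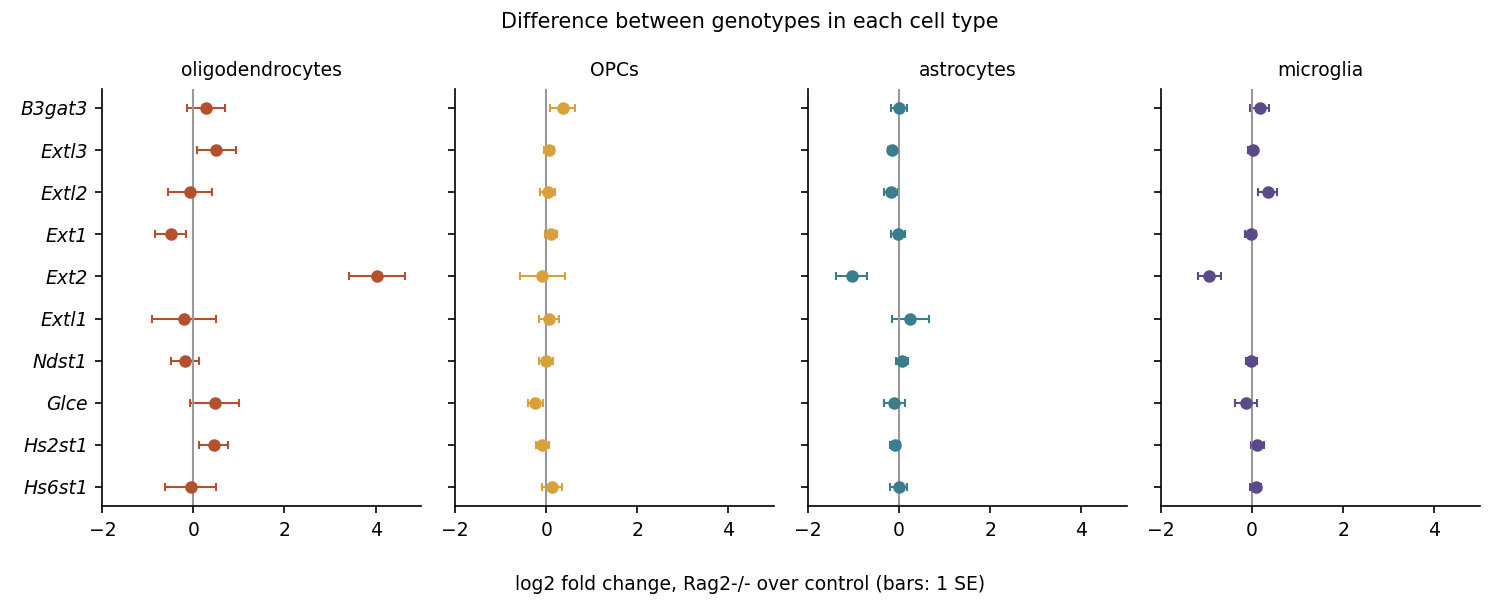
Log2 fold change of Rag2-/- over control in the fit with sex as a term, for the 10 genes in each cell type, with bars of 1 SE. The bars were taken from the F statistic of the edgeR test and are not read for Ext2. Ext2 stands at 4.03 in oligodendrocytes and at -1.04 and -0.94 in astrocytes and microglia, while every partner lies between -0.50 and 0.50; Extl1 in microglia was not tested.

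The joint fit also compared the Rag2-/- over control difference of oligodendrocytes with its average over OPCs, astrocytes and microglia. It called 0 of 9 partners (2.54% of 21368 genes). Unadjusted, 1 partner, Hs2st1, had an edgeR p under 0.05 (log2 difference 0.50, SE 0.21, edgeR adjusted p = 0.176). So had 3915 of all 21368 genes, and the count does not set the partners apart. Extl3 had a log2 difference of 0.54 (SE 0.27, edgeR adjusted p = 0.274). It was called without the Rag2-/- oligodendrocytes of pair 5, its lowest library (log2 difference 0.84, edgeR adjusted p = 0.00648). Leaving out the lowest Rag2-/- library raises that difference by construction, so nothing is drawn from that fit. In 4 processing alternatives with all libraries, Extl3 had an edgeR adjusted p of 0.291 to 0.406 and was not called. Ext2, with no test, had a difference of 4.73.

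Female and male mice were compared in the same fits within cell types. No partner was called in oligodendrocytes (0.0362% of genes), OPCs (0.0296%), astrocytes (0.0407%) or microglia (0.0467%) by edgeR. Unadjusted, 1, 1, 0 and 2 partners had an edgeR p under 0.05. Over all genes tested these numbers were 1136 of 13802, 726 of 16882, 991 of 14725 and 588 of 15003. Hs6st1 accounted for 3 of the 4 partner values. In oligodendrocytes it stood at 3.60, 4.72 and 5.74 CPM in the 3 females and at 13.4 to 20.8 CPM in the 5 males, so the sexes did not overlap, as was the case with females lower for 4.31% of genes. Its log2 fold change, female over male, was -1.69 (SE 0.61, edgeR adjusted p = 0.506), and DESeq2, which called 1.78% of genes, gave -1.68 with an adjusted p of 0.0216. In OPCs the value was -0.53 (SE 0.23, edgeR adjusted p = 0.999), in astrocytes -0.06 (SE 0.19, edgeR adjusted p = 0.975) and in microglia 0.30 (SE 0.12, edgeR adjusted p = 1.000). The oligodendrocyte females came from pairs 5 and 6, in which the neuron marker sums were highest. The male control of pair 6 had the highest sum of all, 3021 CPM, and also the highest Hs6st1, 20.8 CPM. The share of neuronal RNA in the Hs6st1 values was not tested. Of the exonic bases of Hs6st1, 6.61% overlap Gm37335 on the other strand.

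The rest of the pathway was read from 4 lists of genes around the 10. None of the 6 linker genes, 15 sulfation and editing genes, 7 genes for sugar and sulfate donors or 13 core proteins was called by genotype or by sex in any cell type, of 31, 35, 31 and 22 list genes tested in oligodendrocytes, OPCs, astrocytes and microglia. Over all genes tested in a cell type, edgeR called 0 to 1 by genotype and 5 to 7 by sex. The lack of calls therefore does not set the lists apart from other genes. Counts between cell types are given over list genes that passed the filter on low counts in both, since a gene that passed through 1 of them had to differ. Between OPCs and microglia these were 5 linker genes, of which 3 were higher in OPCs and 0 lower, 3 sulfation and editing genes (1 higher, 2 lower), 7 donor genes (5 higher, 1 lower) and 6 core proteins (5 higher, 1 lower), against 33.7% higher and 35.8% lower of 13473 genes. The lists are short, and this way of counting was chosen after seeing the data. Xylt1, which adds the first linker sugar, stood at 640 ± 72.3 CPM in OPCs (n = 11) and 8.54 ± 3.50 CPM in microglia (n = 12), a log2 fold change of 6.21 (SE 0.25, edgeR adjusted p = 2.85e-24). Sulf2, an extracellular 6-O-endosulfatase, was 748 ± 88.8 CPM in OPCs and 25.2 ± 6.25 in microglia. Ndst2, a second N-sulfotransferase, went the other way, at 66.5 ± 7.12 CPM in microglia against 16.8 ± 4.44 in OPCs, the reverse of Ndst1. In oligodendrocytes against OPCs, 8 of 10 core proteins measured in both were lower and 0 higher, against 24.4% lower and 20.7% higher of 13461 genes, and Xylt1 was lower by a log2 difference of -2.89 (SE 0.25, edgeR adjusted p = 1.42e-12).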

How the data were processed

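Cortical glia of 12 mice were immunopanned, and amplified cDNA was sequenced as read pairs of 50 bases. The authors aligned the reads with STAR (version 2.7.8a) to GRCm39, counted them per gene with HTSeq and deposited raw counts, 1 table per library. The counting mode and strand setting are not given in the sources used here, and multi-mapped pairs were set aside. The 5 closing rows that name no gene held 33.5% to 52.0% of pairs and were left out.

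Groups came from the labels. Counts were tested with edgeR (4.0.16, R 4.3.3) by quasi-likelihood with TMM scaling and a filter on low counts (at least 10 counts in enough libraries and 15 in total), within cell types on sex and genotype, and over all 43 libraries on cell type by genotype and sex. P-values were adjusted by Benjamini-Hochberg over all genes tested, with calls under 0.05. An SE beside an edgeR log2 fold change is the size of that change over the square root of the F statistic of its test. List counts between cell types kept genes that passed the filter in both, a restriction chosen after seeing the data. Spread used log2(CPM + 0.5). Correlations had permutation tests, exact under 10 libraries and with 1e+05 resamples otherwise. The fits were tested on simulated data with known changes. Alternatives were DESeq2 (1.42.0), its size factors in edgeR, no filter, no sex term, a littermate block, Rag2+/- controls alone, scaling without mitochondrially encoded genes, and each library left out in turn.

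The members and the pathway and marker lists were chosen with earlier results of these data known. The rule named all 10 members, the 5 genes with the highest Pearson r to Ext2, and genes of the pathway lists that passed a test, with up to 3 more per list by level; the examples printed all passed one and were picked from these after their values were seen. Lengths, positions and promoter windows came from GENCODE and RefSeq tables of the reference used here, whose release differs from the annotation the counts were made with. Libraries of the same littermate pair deviated together only weakly: the mean correlation of their deviations was 0.119, 0.145, 0.174 and 0.121 in oligodendrocytes, OPCs, astrocytes and microglia, against -0.0386, -0.0288, -0.0336 and -0.0245 between other pairs. Each library is a separate mouse within its cell type.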

Additional observations from a re-analysis of the deposited data

Results flagged for a closer look

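In 8 of 72 groups of a partner, cell type and genotype, 1 library lay apart from the rest of its group by Dixon's test on CPM. The nominal rate of that test is about 1 in 20 groups. Its share over all genes in these libraries was not computed, so the count does not set the partners apart from other genes. The same rule picked out Ext2 in the control OPCs of pair 6, at 213 CPM, and in the control astrocytes of pair 5, at 155 CPM, which restates the spread for which Ext2 was picked and is not counted. Ext1 was high in the control oligodendrocytes of pair 5, at 74.7 CPM, and in the Rag2-/- OPCs of pair 3, at 76.2 CPM. Extl1 was high in the control astrocytes of pair 6 (8.52 CPM), where Ndst1 was low (51.5 CPM). Extl2 was high in the Rag2-/- astrocytes of pair 2 (34.97 CPM) and Extl3 in the Rag2-/- OPCs of pair 4 (116 CPM). Hs6st1 was low in the control microglia of pair 1 (43.7 CPM), and B3gat3 was high in the Rag2-/- microglia of pair 3 (26.0 CPM).

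Of 14 genes tested in the sulfation list, the joint fit called 1, the 3-O-sulfotransferase Hs3st3b1, when the Rag2-/- over control difference of oligodendrocytes was set against its average over the 3 remaining cell types. The log2 difference was -4.27, given without its SE and p because the reads in oligodendrocytes were few. Its counts were 19, 3, 1 and 23 in control and 0, 3, 0 and 0 in Rag2-/- oligodendrocytes of pairs 1, 3, 5 and 6, so the difference rests on few reads in 2 control libraries. In oligodendrocytes Hs3st3b1 had too few reads for the filter, and it entered the joint fit through the other cell types, so nothing is drawn from the call. Of all genes, 2.54% were called in that test.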

How the results depend on the processing

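Of the values recomputed under alternatives for comparisons and summaries, 97 kept their side and 7 moved. Partners wider than Ext2 in SD numbered 0, but 1 without mitochondrially encoded genes, and 0 to 2 with 1 library left out: 1 without the control astrocytes of pair 5 or the control microglia of pair 1, and 2 without the control microglia of pair 2. Correlations with Ext2 past the test numbered 0, but 1 over deviations from genotype means and 1 without the 2 farthest libraries. DESeq2 called 1 partner by sex in oligodendrocytes, Hs6st1. With 1 library left out, calls between oligodendrocytes and microglia numbered 5 to 8, with 8 without the Rag2-/- oligodendrocytes of pair 6, and the genotype by cell type test called 0 to 1. The causes were not tested. With the littermate pair as a block, calls by genotype stayed at 0, calls between cell types, with Ext2 counted, at 4, 4, 5, 4, 9 and 6 in the order given above, and the genotype by cell type test at 0. Ext2's genotype difference moved to 3.10 in oligodendrocytes under that block, and to 0.59 in OPCs with Rag2+/- controls alone. Among values of single genes, 10 gained a call, 6 lost one, 2 moved in another way and 613 stayed the same. Genes with few counts, such as Extl1 in microglia, are limited by depth.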

Other observations

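Enzymes that act around the 10 genes had their own cell type patterns. Hs3st1, a 3-O-sulfotransferase, was highest in oligodendrocytes, at 25.7 ± 16.02 CPM (SD, n = 8) against 0.422 ± 0.261 CPM in microglia (n = 12), where its reads were too few for the filter. Papss2, which makes the sulfate donor PAPS, was highest in astrocytes, at 87.2 ± 12.3 CPM (n = 12), and exceeded microglia by a log2 fold change of 5.93 (SE 0.31, edgeR adjusted p = 1.27e-20). Ugdh, which makes UDP-glucuronic acid, stood at 88.7 ± 15.4 CPM in OPCs (n = 11) and at 10.9 to 17.2 CPM on average in the other cell types.

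Among core proteins, the syndecans Sdc3 and Sdc4 had opposite orders. Sdc3 was 468 ± 37.7 CPM in OPCs and 31.7 ± 7.56 CPM in microglia, while Sdc4 was 58.9 ± 30.6 CPM in OPCs and 525.5 ± 87.6 CPM in microglia, with log2 fold changes of OPCs over microglia of 3.88 and -3.20 that both passed the edgeR test. Gpc5, a glypican, was highest in astrocytes, at 133 ± 17.1 CPM, and stood at 1.41 ± 1.33 CPM in microglia.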
